A study of Mus musculus with 12 samples.

Results

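The genes described here are 46 mouse genes of the lysosome, a fixed list of membrane proteins, acid hydrolases and their helpers, subunits of the proton pump, and the transcription factors Tfeb and Tfe3. They were found in the count table by symbol, without use of their values. Of the 46 genes, 45 were among the 17365 genes of the table and all of these 45 were among the 13641 genes with enough counts to be tested; Ctss was not analysed here.

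The lysosome is the acidic compartment in which cells break down proteins, glycans and lipids delivered by endocytosis and autophagy. A proton pump in its membrane keeps it acidic, and most of its hydrolases are active only at acid pH. Tfeb and Tfe3 are related transcription factors that bind a shared element in the promoters of many lysosome genes and raise their transcription. In the adult neural stem cell niche, quiescent neural stem cells are known for large lysosomes that hold protein aggregates.

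RNA-seq had been made from cultured adult neural stem cells (NSCs) in 3 states, to ask how dormant and primed quiescence differ. Proliferating cells were grown in EGF and FGF2 (EGF/FGF). Dormant quiescent cells (d-qNSCs) were treated with BMP4 (BMP), and primed quiescent cells (p-qNSCs) with BMP4 and FGF2 together (BMP/FGF). Each factor was used at 10 ng/ml and the treatments lasted 3 days. Every state had 4 libraries, 2 replicates of the line ANS4 and 2 of the line BL6, so that there were 12 libraries. Both lines came from the subventricular zone of wild-type mice aged 6 to 8 weeks and were used below passage 10, ANS4 from the strain MF1 and BL6 from C57BL/6. With 1 line per strain, line and strain cannot be told apart, and the labels call the replicates biological without saying whether they were separate cultures, so the p-values measure only the spread between these libraries. Values of a gene in 4 libraries are given below in the order ANS4 replicate 1, ANS4 replicate 2, BL6 replicate 1 and BL6 replicate 2.

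Totals lay between 18069052 and 19451818 counts per library. Levels are CPM, the counts of a gene relative to the library total after TMM scaling. Changes are log2 fold changes ± standard error from edgeR's quasi-likelihood test, in which line was a term, and FDR is its p-value after Benjamini-Hochberg adjustment across the 13641 genes. Rises and falls are changes at FDR under 0.05. The lowest count of any lysosome gene was 56, for Ctsh. The replicates of BL6 in BMP differed from each other by more than any other pair (chi-square per gene 12.4, against 2.14 to 4.77 in the other pairs). Markers of neural stem cells (8 of 8 tested) had a summed level of at least 7329 CPM in every library, but they did not move together. Against EGF/FGF, Nes fell by 2.18 in BMP and 2.31 in BMP/FGF on the log2 scale, and Fabp7 by 2.40 and 0.82. Sox2, Slc1a3, Vim, Msi1, Prom1 and Sox9 rose in both quiescent states.

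Lysosome genes took a larger share of all counts in both quiescent states. Their share of counts ranged over 0.659% to 0.778% among EGF/FGF libraries, over 1.30% to 1.44% among BMP libraries and over 1.47% to 1.54% among BMP/FGF libraries. In BMP, 33 of the 45 tested genes rose against EGF/FGF, 7 fell and 5 did not pass the test. Of all tested genes, 40.2% rose and 38.8% fell in this comparison, and the median log2 fold change was 0.57 over the lysosome genes and 0.02 over all genes. In BMP/FGF, 33 rose, 3 fell and 9 did not pass, where 40.0% of all tested genes rose and 38.1% fell, with medians of 0.60 and 0.01. Both comparisons use the same 4 EGF/FGF libraries, so they are not independent of each other. In bulk RNA, more transcript per cell and more cells that carry it cannot be told apart.

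Most of these changes were moderate. With a log2 fold change above 1.5 as a further condition, Ctsf, Ctsb and Ctsl rose and Ctsc fell in BMP, while 11.3% of all tested genes rose and 7.21% fell by that much. Under the same condition Ctsf, Ctsb, Ctso and Ctsl rose in BMP/FGF and none fell, against 11.0% and 6.39% of all tested genes. The libraries of BMP and EGF/FGF did not overlap for 29 genes that were higher in BMP and 3 that were lower, where 35.6% and 34.7% of all tested genes did not overlap. For BMP/FGF the numbers were 33 and 3, beside 38.1% and 36.9% of all tested genes.

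**Figure D1:**
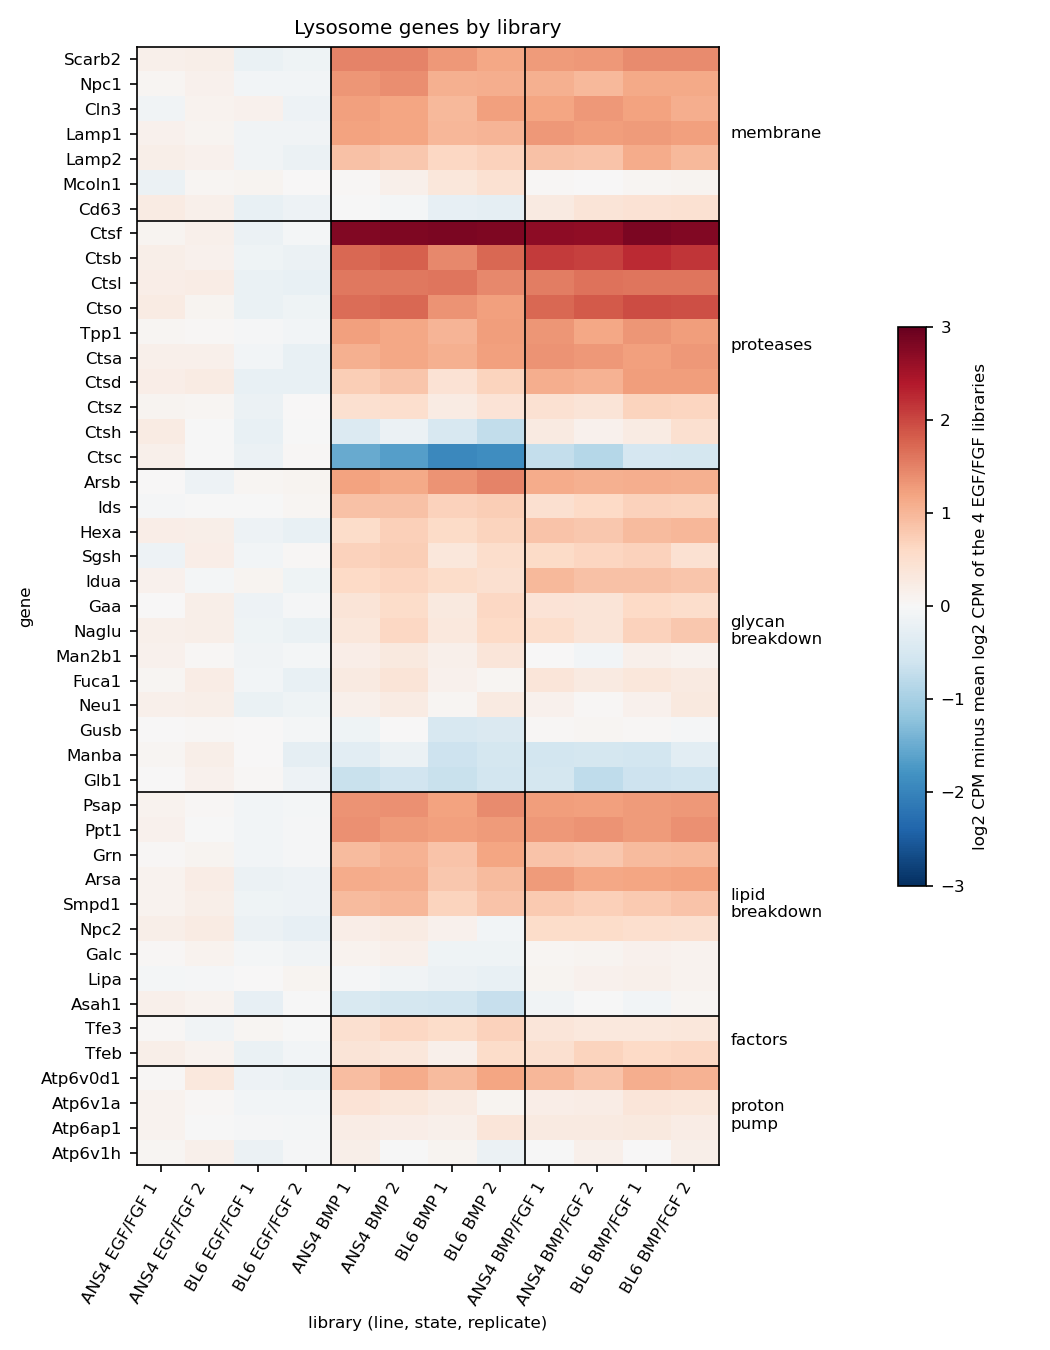
Heat map of the 45 lysosome genes (rows, grouped by role and ordered by their change in BMP) in the 12 libraries (columns, 4 per state). Colour is log2 CPM minus the mean log2 CPM of the 4 EGF/FGF libraries; Ctsf is the most strongly coloured row in both quiescent states and Ctsc the darkest blue one in BMP.

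Other cell features moved between the same states. The summed level of 5 cycling markers (Mki67, Top2a, Pcna, Mcm2, Ccnb1) ranged from 2161 to 2617 CPM among EGF/FGF libraries, from 368 to 542 among BMP libraries and from 264 to 281 among BMP/FGF libraries. That of 5 astrocyte markers (Gfap, Aqp4, Aldh1l1, S100b, Gja1) was 1254 to 1498, 3476 to 4476 and 5836 to 5997. All 5 rose in BMP/FGF, and all but Aldh1l1 (0.04 ± 0.09, FDR = 0.713) rose in BMP. Of the oligodendrocyte markers, Cnp ranged from 163 to 206 CPM among EGF/FGF libraries, from 455 to 508 among BMP libraries and from 446 to 465 among BMP/FGF libraries, and Mog had at most 5 counts in any library. The part of these features in the changes of lysosome genes was not tested. Of 12 microglia and macrophage markers 5 were in the table and 2, Itgam and P2ry12, were tested. The sum of the 5 was 9.57 to 14.7 CPM in EGF/FGF libraries, 5.33 to 6.21 for BMP and 7.13 to 9.32 for BMP/FGF, most of it from Itgam, which fell by 1.56 and by 0.88 on the log2 scale in the quiescent states. P2ry12 had a change of 0.62 ± 0.29, FDR = 0.0547 in BMP and rose in BMP/FGF by 0.78 ± 0.28, FDR = 0.019. Csf1r had at most 2 counts in any library and Tmem119 at most 4. The sums of endothelial and of fibroblast and pericyte markers stayed at or below 6.41 CPM in every library.

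Among the 7 membrane proteins, 6 rose in BMP and 6 in BMP/FGF, and none fell. Of all tested genes, 40.2% rose and 38.8% fell in BMP, and 40.0% rose and 38.1% fell in BMP/FGF. Scarb2, the receptor that carries glucocerebrosidase to the lysosome, stood at 425, 436, 338 and 352 CPM in EGF/FGF, 1077, 1081, 955 and 864 in BMP and 937, 942, 1026 and 1034 in BMP/FGF. Every quiescent library was above every EGF/FGF library, and the change was 1.36 ± 0.08, FDR = 3.91e-11 in BMP and 1.36 ± 0.08, FDR = 4.6e-11 in BMP/FGF. Npc1, which moves cholesterol out of the lysosome, was at 171, 179, 156 and 155 CPM in EGF/FGF, 414, 435, 343 and 350.1 in BMP and 345, 324, 364 and 362 in BMP/FGF. Its quiescent libraries again lay wholly above EGF/FGF (1.22 ± 0.07, FDR = 4.7e-11 in BMP, 1.08 ± 0.07, FDR = 2.6e-10 in BMP/FGF). Cln3, a membrane protein lost in juvenile Batten disease, was measured at 12.2, 14.1, 14.4 and 11.8 CPM in EGF/FGF, 30.6, 29.9, 25.7 and 30.8 in BMP and 29.9, 32.3, 30.3 and 27.9 in BMP/FGF. Its states did not overlap with EGF/FGF either, with changes of 1.15 ± 0.09, FDR = 9.8e-10 and 1.19 ± 0.09, FDR = 6.61e-10.

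The main glycoproteins of the lysosomal membrane behaved in the same direction. Lamp1 rose by 1.10 in BMP and 1.27 in BMP/FGF and Lamp2 by 0.74 and 0.96, all on the log2 scale. Mcoln1, the calcium channel of the lysosome, rose in BMP (0.25 ± 0.08, FDR = 0.0106), although its BMP and EGF/FGF libraries overlapped, and its change in BMP/FGF was 0.04 ± 0.08, FDR = 0.654. Cd63, a tetraspanin of late endosomes and lysosomes, had a change of -0.15 ± 0.08, FDR = 0.101 in BMP and rose in BMP/FGF (0.39 ± 0.08, FDR = 0.000299).

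Proteases held the largest changes in both directions: 8 of 10 rose and 2 fell in BMP, and 8 rose and 1 fell in BMP/FGF. The shares of all tested genes were 40.2% and 38.8% in BMP and 40.0% and 38.1% in BMP/FGF. Ctsf, a cysteine protease (cathepsin F, chr19:4855130-4860918 in mm10), stood at 21.9, 23.2, 18.3 and 19.9 CPM in EGF/FGF, 142, 144, 148 and 144 in BMP and 133, 132, 147 and 141 in BMP/FGF. Every quiescent library exceeded every EGF/FGF library several times over, and the level was 6.94-fold higher in BMP (2.79 ± 0.07, FDR = 7.63e-16) and 6.64-fold higher in BMP/FGF (2.73 ± 0.07, FDR = 1.2e-15). Ctsb, cathepsin B (chr14:63122462-63145923), was at 576, 555, 471 and 455 CPM in EGF/FGF, 1693, 1784, 1384 and 1686 in BMP and 2190.3, 2134, 2401 and 2276 in BMP/FGF. Here the states were stepped, since BMP/FGF lay above BMP and BMP above EGF/FGF in all libraries, with changes of 1.67 ± 0.08, FDR = 3.72e-12 and 2.14 ± 0.09, FDR = 1.64e-13 against EGF/FGF. Exons of Ctsb share bases with Fdft1 on the other strand, and no source used here says whether strand was used in counting.

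Ctsc, cathepsin C, activates serine proteases of immune cell granules, and it went the other way. It stood at 46.2, 41.8, 36.8 and 42.8 CPM in EGF/FGF, 14.5, 13.2, 11.0 and 11.4 in BMP and 25.4, 23.1, 29.3 and 29.1 in BMP/FGF (chr7:88278085-88310888). Its BMP libraries were the lowest and its EGF/FGF libraries the highest, with no overlap among the states, and the change was -1.74 ± 0.10, FDR = 3.93e-11 in BMP and -0.65 ± 0.10, FDR = 9.82e-06 in BMP/FGF. Ctsh, an aminopeptidase, fell in BMP (-0.45 ± 0.15, FDR = 0.00955) with overlapping libraries, and its change in BMP/FGF was 0.28 ± 0.14, FDR = 0.0713. The other proteases rose in both states. In BMP their log2 fold changes were 1.55 for Ctsl, 1.17 for the tripeptidyl peptidase Tpp1, 1.13 for Ctsa, which protects Neu1 and Glb1 from degradation, 0.67 for the aspartic protease Ctsd and 0.42 for Ctsz. In BMP/FGF the same genes changed by 1.59, 1.27, 1.29, 1.16 and 0.54 on that scale. Ctso, a cysteine protease, was 2.83-fold higher in BMP (FDR = 1.1e-10) and 3.65-fold higher in BMP/FGF (FDR = 6.05e-12).

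**Figure D2:**
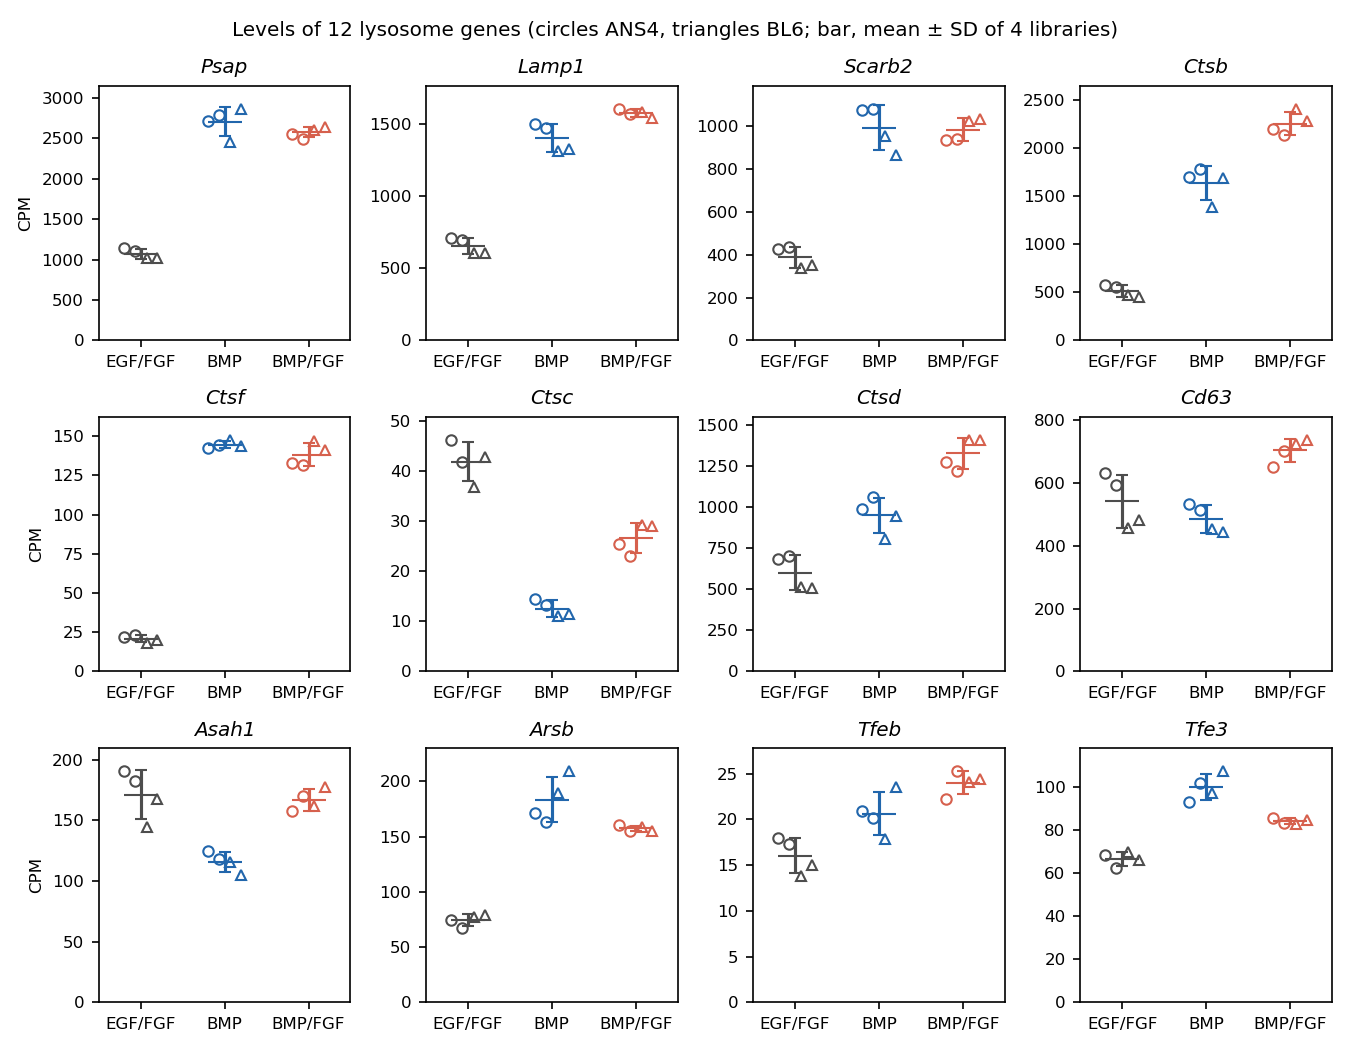
Levels of 12 lysosome genes in CPM (vertical axes start at 0) in EGF/FGF, BMP and BMP/FGF; circles are ANS4 libraries, triangles BL6 libraries, and bars the mean ± SD of 4 libraries. Ctsf and Psap stand at like levels in BMP and BMP/FGF, Ctsb and Ctsd step up from state to state, and Ctsc and Asah1 are lowest in BMP.

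Of the 13 enzymes that break down glycans and glycosaminoglycans, 9 rose and 3 fell in BMP, and 8 rose and 2 fell in BMP/FGF. Beside this, 40.2% of all tested genes rose and 38.8% fell in BMP, and 40.0% and 38.1% in BMP/FGF. Arsb, a sulfatase that acts on dermatan and chondroitin sulfate, was at 74.6, 67.3, 77.0 and 79.3 CPM in EGF/FGF, 171, 164, 189 and 209 in BMP and 160.2, 155, 158 and 155 in BMP/FGF. Both quiescent states lay above EGF/FGF without overlap (1.30 ± 0.07, FDR = 3.73e-12 in BMP, 1.08 ± 0.07, FDR = 4.87e-11 in BMP/FGF). Ids, the iduronate sulfatase, stood at 101, 102, 102 and 108 CPM in EGF/FGF, 189.6, 189, 168 and 171 in BMP and 145, 155, 167 and 164 in BMP/FGF, and rose by 0.80 ± 0.06 (FDR = 2.09e-09) and 0.61 ± 0.06 (FDR = 8.47e-08). Its libraries did not overlap between EGF/FGF and either quiescent state. Hexa, the alpha chain of beta-hexosaminidase, which degrades the ganglioside GM2, was at 121, 118, 94.0 and 90.3 CPM in EGF/FGF, 153, 171, 155 and 167 in BMP and 190.2, 184, 203 and 210.0 in BMP/FGF. All of its quiescent libraries were above all EGF/FGF libraries, by 0.62 ± 0.09, FDR = 2.81e-06 and 0.90 ± 0.09, FDR = 2.26e-08.

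Further members of this group rose in both states by smaller amounts. The heparan sulfate enzymes Sgsh, Idua and Naglu rose by 0.57, 0.56 and 0.46 in BMP and by 0.59, 0.89 and 0.60 in BMP/FGF on the log2 scale. Gaa, which digests glycogen, rose by 0.47 and 0.48 and the fucosidase Fuca1 by 0.21 and 0.31. Man2b1, an alpha-mannosidase, rose in BMP (0.25 ± 0.08, FDR = 0.00536) and had a change of 0.04 in BMP/FGF (FDR = 0.653). Glb1, the beta-galactosidase whose activity is stained as a mark of senescence, fell in both states, from 55.0, 59.7, 55.7 and 49.3 CPM in EGF/FGF to 34.7, 36.7, 34.7 and 37.5 in BMP and 38.3, 32.5, 35.6 and 35.9 in BMP/FGF (-0.61 ± 0.07, FDR = 3.85e-07 and -0.63 ± 0.07, FDR = 3.13e-07). Exons of Glb1 share bases with Tmppe on the same strand, so its level is less certain. Manba, a beta-mannosidase, fell by 0.41 in BMP and 0.48 in BMP/FGF on the log2 scale. Gusb, the beta-glucuronidase, fell in BMP (-0.25 ± 0.08, FDR = 0.00778) with overlapping libraries and had a change of 0.02 in BMP/FGF, and the sialidase Neu1 passed in neither state (0.18 and 0.15).

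In the group of 9 lipid enzymes and their helpers, 5 rose and 2 fell in BMP, and 6 rose and none fell in BMP/FGF. These were 55.6% and 22.2% of the group in BMP, where 40.2% of all tested genes rose and 38.8% fell. In BMP/FGF 66.7% of the group rose, where 40.0% of all tested genes rose and 38.1% fell. Psap, the precursor of the saposins that help sphingolipid hydrolases reach their substrates, was at 1141, 1099.8, 1013 and 1025 CPM in EGF/FGF, 2713, 2785, 2452 and 2859 in BMP and 2555, 2491, 2604 and 2637 in BMP/FGF (chr10:60277627-60302597). No quiescent library came near the EGF/FGF range, and Psap rose by 1.34 ± 0.07 in BMP (FDR = 3.01e-12) and 1.27 ± 0.07 in BMP/FGF (FDR = 6.46e-12). Ppt1, a thioesterase that removes palmitate from proteins, stood at 117, 106, 101 and 104 CPM in EGF/FGF, 277, 257, 252 and 257 in BMP and 262, 270.3, 261 and 275 in BMP/FGF. Both states were above EGF/FGF without overlap (1.29 ± 0.06, FDR = 8.1e-13 and 1.32 ± 0.06, FDR = 5.66e-13). Grn, the precursor of granulins, was at 82.5, 84.1, 76.0 and 77.8 CPM in EGF/FGF, 153, 165, 146 and 182 in BMP and 144, 140.5, 154 and 157 in BMP/FGF, and rose by 1.01 ± 0.07 (FDR = 3.54e-10) and 0.89 ± 0.07 (FDR = 2.17e-09) with no overlap against EGF/FGF.

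The remaining lipid genes differed in direction. Arsa, which desulfates sulfatide, rose by 0.99 and 1.21 on the log2 scale in BMP and BMP/FGF, and the acid sphingomyelinase Smpd1 by 0.87 and 0.79. Npc2, which hands cholesterol to Npc1, had a change of 0.13 in BMP (FDR = 0.124) and rose in BMP/FGF (0.52 ± 0.07, FDR = 4.28e-06). Asah1, the acid ceramidase, fell in BMP (-0.56 ± 0.07, FDR = 1.59e-06) without overlap, and its change in BMP/FGF was -0.03 ± 0.07, FDR = 0.698. Lipa, the acid lipase, fell by 0.14 in BMP (FDR = 0.0474), a call that held in 13 of 22 alternative fits, and had a change of 0.11 in BMP/FGF. Galc, the galactosylceramidase, passed in neither state (0.00 and 0.09).

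Of the 4 subunits of the proton pump, 3 rose in BMP and 3 in BMP/FGF, and none fell. Over all tested genes, 40.2% rose and 38.8% fell in BMP, and 40.0% rose and 38.1% fell in BMP/FGF. Atp6v0d1, a subunit of the membrane sector, was at 81.4, 98.4, 71.6 and 69.4 CPM in EGF/FGF, 151, 171, 154 and 181 in BMP and 159, 143, 169 and 164 in BMP/FGF. Quiescent and EGF/FGF libraries did not overlap (1.04 ± 0.10, FDR = 1.6e-08 in BMP, 0.99 ± 0.10, FDR = 3.42e-08 in BMP/FGF). Atp6v1a, the catalytic subunit, stood at 225, 216, 199 and 199 CPM in EGF/FGF, 277, 264, 249 and 223 in BMP and 242, 244, 267 and 267 in BMP/FGF, and its changes were 0.27 ± 0.07, FDR = 0.00155 and 0.29 ± 0.07, FDR = 0.00107. The libraries of Atp6v1a overlapped between BMP and EGF/FGF but not between BMP/FGF and EGF/FGF. Atp6ap1, an accessory subunit, was at 185, 171, 169.5 and 167 CPM in EGF/FGF, 203, 198, 193 and 224 in BMP and 208, 208, 211 and 203 in BMP/FGF and rose by 0.24 ± 0.06 (FDR = 0.00146) and 0.26 ± 0.06 (FDR = 0.000707), without overlap against EGF/FGF. Atp6v1h, a regulatory subunit, stood at 105, 111, 88.9 and 98.0 CPM in EGF/FGF, 113, 99.0, 106 and 88.4 in BMP and 100.2, 112, 101 and 113 in BMP/FGF. Its libraries overlapped in all states, and its changes of 0.01 ± 0.08 and 0.08 ± 0.08 did not pass (FDR = 0.874 and 0.314).

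Both transcription factors rose in both quiescent states. Tfeb was at 18.0, 17.3, 13.8 and 15.01 CPM in EGF/FGF, 21.0, 20.2, 17.8 and 23.5 in BMP and 22.3, 25.3, 24.1 and 24.5 in BMP/FGF. Its BMP and EGF/FGF libraries overlapped, by 1 BL6 library of BMP, whereas BMP/FGF lay above EGF/FGF in all libraries (0.37 ± 0.10, FDR = 0.00231 and 0.59 ± 0.10, FDR = 2.56e-05). Tfe3 stood at 68.6, 62.5, 69.9 and 66.2 CPM in EGF/FGF, 93.2, 102, 97.1 and 107 in BMP and 85.7, 83.3, 83.0 and 84.6 in BMP/FGF. Its 3 states did not overlap with each other, with BMP highest (0.58 ± 0.06, FDR = 6.24e-08 in BMP, 0.33 ± 0.06, FDR = 5.95e-05 in BMP/FGF). These are levels of mRNA, and both factors are known to be controlled mainly by their place in the cell, which RNA-seq does not measure.

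**Figure D3:**
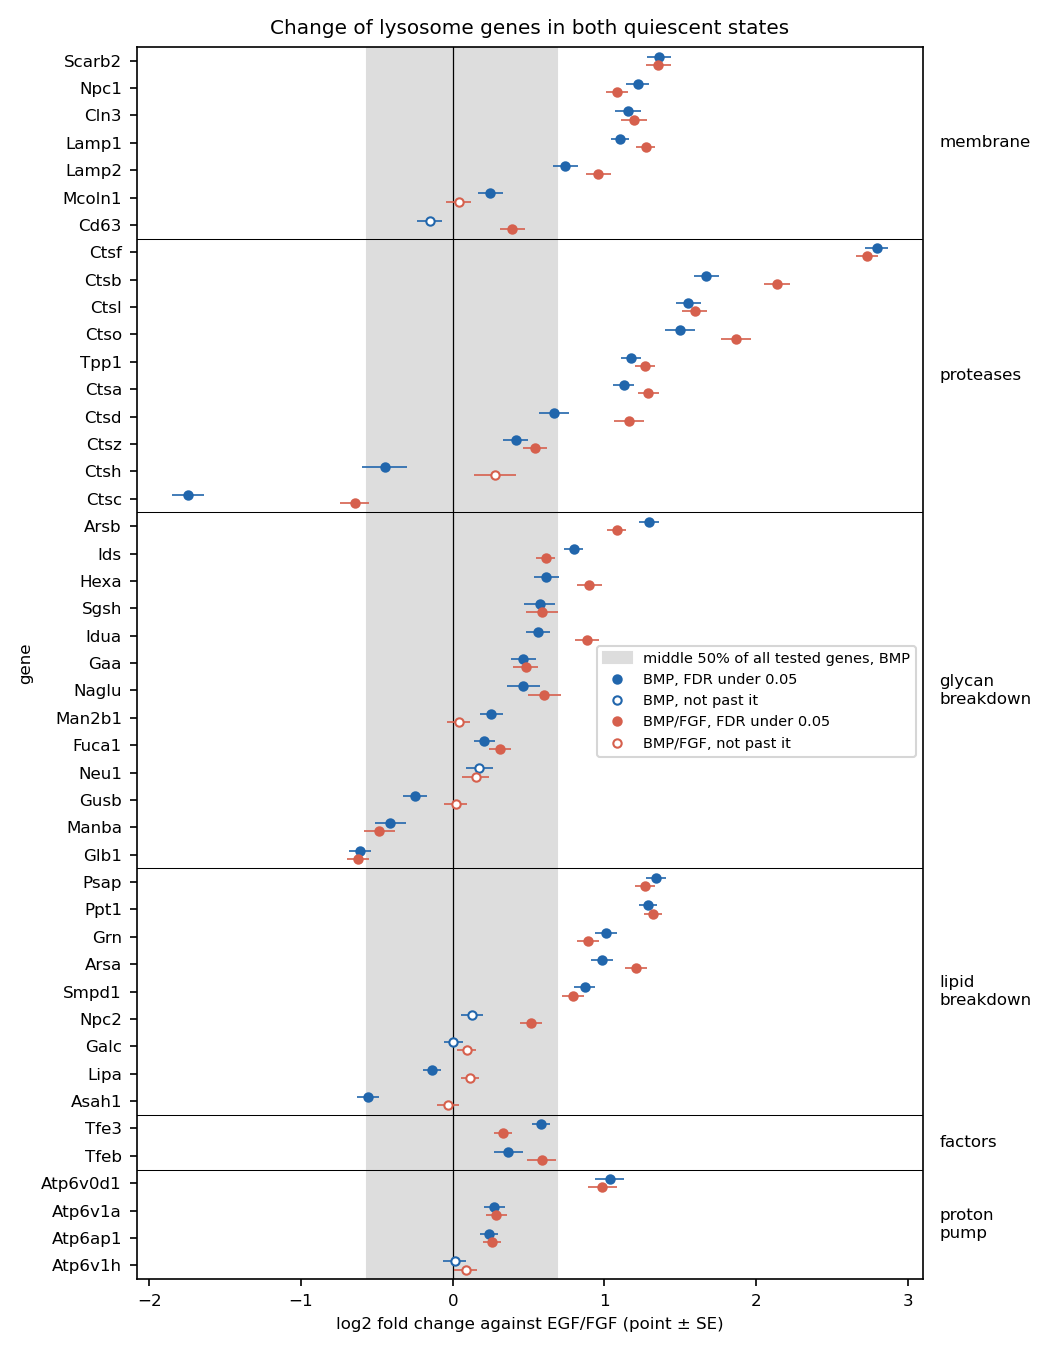
Log2 fold change against EGF/FGF (horizontal axis, point ± SE) of the 45 lysosome genes in BMP (blue) and BMP/FGF (red), grouped by role; filled points are at FDR under 0.05 and the grey band holds the middle 50% of all tested genes in BMP. Ctsf, at 2.79 and 2.73, lies farthest to the right, and Ctsc, at -1.74 in BMP, farthest to the left.

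The promoters of the lysosome genes were searched for the element that Tfeb and Tfe3 are known to bind, because many of the genes moved together. Windows from 250 bases before to 50 bases after the annotated start were taken from RefSeq (GRCm38.p6) and matched 41 of the 46 listed genes; none was found for Npc1, Ctsb, Ctsh, Asah1 and Atp6v1h. The core CACGTG, which reads the same on both strands, was in a window of 14 of these 41 genes (34.1%) and of 8.09% of all 27025 genes with a window. The longer form TCACGTGA, which contains the core and also reads the same on both strands, was in 6 of 41 (14.6%) and in 1.12% of all genes. The windows of the 6 genes around this longer form are given here, 5′ to 3′ on the strand of the gene, since they carry the closest match to the known element. Capitals mark TCACGTGA.
Ctsa, chr2:164833749-164833778, plus strand: tgagcaaactgTCACGTGAtgcagatgctc
Ctsa, chr2:164833766-164833795, plus strand: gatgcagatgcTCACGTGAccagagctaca
Cln3, chr7:126583340-126583369, minus strand: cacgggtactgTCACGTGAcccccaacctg
Ctsd, chr7:142387908-142387937, minus strand: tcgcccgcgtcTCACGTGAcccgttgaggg
Mcoln1, chr8:3500462-3500491, plus strand: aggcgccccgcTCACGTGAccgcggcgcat
Atp6v0d1, chr8:105566050-105566079, minus strand: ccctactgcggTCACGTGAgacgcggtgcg
Atp6v1a, chr16:44139373-44139402, minus strand: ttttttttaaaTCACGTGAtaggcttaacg

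In Ctsa the element occurred at 2 places. The shares over all genes were taken from every gene with a window, tested here or not. The element is known from promoters of lysosome genes, so its share in a list of such genes does not depend on these data. Of the 14 genes with the core, 13 rose and 1 (Glb1) fell in BMP, with a median log2 fold change of 0.83. Of the 26 tested genes whose window lacked it, 18 rose, 4 fell and 4 did not pass, with a median of 0.49. In BMP/FGF the counts were 12, 1 and 1 with the core (median 1.07) and 19, 2 and 5 without it (median 0.56). Of all tested genes, 40.2% rose and 38.8% fell in BMP, and 40.0% rose and 38.1% fell in BMP/FGF. Such counts were not made for all genes that carry the core, so its part in the rises was not tested. Of the genes with the largest rise in BMP in each role group, Ctsf and Atp6v0d1 had the core in this window. Scarb2, Arsb, Psap and Tfe3 did not. A match of letters is a description, not evidence of binding.

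Adding FGF2 to BMP4 moved fewer lysosome genes. Between BMP/FGF and BMP, 15 of 45 were higher, 4 lower and 26 did not pass, where 19.2% of all tested genes were higher and 21.5% lower, and the median log2 fold change was 0.07 against -0.01 over all genes. Libraries did not overlap for 13 genes that were higher and 4 that were lower in BMP/FGF, beside 16.7% and 18.4% of all tested genes. Scaling by library size alone gave 13 higher and 6 lower in place of 15 and 4. Proteases and lipid genes gave 9 of the 15 rises, the membrane proteins Lamp1, Lamp2 and Cd63 and the glycan enzymes Hexa, Gusb and Idua the other 6, and none of the 4 pump subunits of the list passed.

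Ctsc had the largest rise, 2.14-fold (1.10 ± 0.11, FDR = 4.41e-07). The BMP/FGF libraries of Ctsc lay above all BMP libraries while they remained below all EGF/FGF libraries. Ctsh was at 5.79, 4.81, 4.18 and 4.78 CPM in EGF/FGF, 3.66, 4.27, 3.50 and 2.90 in BMP and 5.85, 5.30, 5.77 and 6.80 in BMP/FGF, and was higher in every BMP/FGF library than in any BMP library (0.73 ± 0.14, FDR = 0.000639). Cd63 stood at 632, 594, 458 and 482 CPM in EGF/FGF, 534, 514, 454 and 443 in BMP and 652, 702, 724 and 736 in BMP/FGF. In this gene BMP overlapped with EGF/FGF, and BMP/FGF was above both (0.54 ± 0.08, FDR = 5.38e-05 against BMP).

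Asah1 was at 191, 182, 144 and 168 CPM in EGF/FGF, 124, 118, 116 and 105 in BMP and 158, 169.8, 162 and 178 in BMP/FGF. Its BMP libraries were below all others, and BMP/FGF overlapped with EGF/FGF (0.53 ± 0.07, FDR = 2.35e-05 for BMP/FGF against BMP). Ctsd was measured at 682, 702, 512 and 505 CPM in EGF/FGF, 986, 1062, 806 and 946 in BMP and 1273, 1219, 1407 and 1406 in BMP/FGF. The 3 states of Ctsd followed each other without overlap, BMP/FGF highest, and the change from BMP to BMP/FGF was 0.49 ± 0.10, FDR = 0.000656. For Ctsb the same step was 0.47 ± 0.08, FDR = 0.000245.

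Smaller rises from BMP to BMP/FGF were those of Npc2 (0.39 on the log2 scale), Ctso (0.37), Idua (0.32), Hexa (0.28), Gusb (0.27), Lipa (0.25), Lamp2 (0.22), Arsa (0.22) and Lamp1 (0.17). The rise held in 13 of 22 alternative fits for Lamp2, in 14 for Lamp1 and in 18 for Arsa. The genes lower in BMP/FGF than in BMP were Tfe3, which fell by 0.25, Arsb by 0.22, Man2b1 by 0.21 and Ids by 0.19 on the same scale. The fall held in 15 of 22 alternative fits for Man2b1, in 16 for Ids and in 19 for Arsb. The number of 4 genes became 2 when ANS4 BMP replicate 2, ANS4 BMP/FGF replicate 1, ANS4 BMP/FGF replicate 2 or BL6 BMP replicate 2 was left out. The other 26 did not pass, among them Ctsf (-0.06), Psap (-0.07), Grn (-0.12) and Ppt1 (0.03).

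Levels of different genes were compared per kilobase of the longest principal coding transcript (GENCODE vM21). That length was 3299 bases for Npc2 and 6168 for Ctsl. Which transcripts the cells expressed was not tested, so the order of genes depends on this choice of length. In EGF/FGF the highest were Cd63 with 488 CPM per kilobase, Psap with 403, Lamp1 with 293 and Ctsd with 282. In BMP Psap was first with 1017, before Lamp1 with 628, Ctsd with 447, Cd63 with 438 and Ctsb with 345. The order in BMP/FGF was Psap with 968, Lamp1 with 706, Cd63 with 634, Ctsd with 623 and Ctsb with 474. Ctsf moved from place 36 of 45 in EGF/FGF to place 16 in BMP and 15 in BMP/FGF, and Ctsc from place 31 to 42 and 37. Sgsh, Ctsh, Manba and Idua had low levels in every state, from 1.93 to 6.84 CPM per kilobase. Exons of 18 of the 45 genes share bases with another annotated gene. Of these, 16 do so with a gene on the opposite strand and 3 with one on the same strand. The levels of the 18 genes, among them Lamp1, Ctsa, Ctsb, Ctsd, Ctsl, Glb1, Hexa, Npc1 and Ppt1, are less certain.

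The lines were compared next. Over all states no lysosome gene was higher or lower in BL6 than in ANS4 by edgeR's quasi-likelihood test at FDR under 0.05, while 1.08% of all tested genes were higher and 0.792% lower. At an unadjusted p under 0.05 there were 13, beside 18.2% of all tested genes, and the DESeq2 Wald test called 2 lower and 0 higher, beside 2.05% and 2.23% of all genes it gave an adjusted p. The median difference was -0.08 on the log2 scale. The largest were those of Npc2 (-0.22 ± 0.06, FDR = 0.0646), Arsa (-0.19 ± 0.06, FDR = 0.103) and Ctso (-0.19 ± 0.08, FDR = 0.199). Npc2 was at 349.8, 368, 275 and 262 CPM in EGF/FGF, 358, 369.9, 342 and 292 in BMP and 454, 454, 439.7 and 432 in BMP/FGF, with both ANS4 libraries above both BL6 libraries in each state. Arsa stood at 45.7, 49.6, 37.1 and 37.8 CPM in EGF/FGF, 90.8, 89.8, 74.0 and 82.0 in BMP and 103, 93.9, 96.4 and 98.0 in BMP/FGF, and its ANS4 libraries were above the BL6 libraries in EGF/FGF and in BMP but not in BMP/FGF.

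Whether the change between states was equal in both lines was tested by the interaction of line and state. For BMP against EGF/FGF, 2 lysosome genes rose more in BL6 and none rose less, where 4.64% and 3.85% of all tested genes differed in these directions. Ctsl was at 139, 142, 105 and 104 CPM in EGF/FGF, 363, 364, 371 and 329.7 in BMP and 351, 377, 369 and 371 in BMP/FGF. In this gene ANS4 exceeded BL6 in EGF/FGF, and the rise was 1.38 ± 0.07 in ANS4 and 1.74 ± 0.07 in BL6, with a difference of 0.37 ± 0.09, FDR = 0.0204. For Hexa the rises were 0.44 ± 0.07 and 0.81 ± 0.07, with a difference of 0.37 ± 0.10, FDR = 0.0262. Ctsa was at 139.5, 139.7, 119.9 and 109 CPM in EGF/FGF, 265, 283, 263 and 294 in BMP and 321, 312, 296 and 309.8 in BMP/FGF, and its difference of 0.31 ± 0.10 did not pass (FDR = 0.0582). The number of 2 became 0 when only the 8 libraries compared were fitted. Over all tested genes the numbers went from 633 and 525 to 352 and 255 in that fit. With each library left out in turn the number varied, for lysosome genes and over all genes, and was highest without BL6 BMP replicate 1. The median difference over the lysosome genes then ranged from 0.05 to 0.15, beside 0.09 as reported.

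For BMP/FGF against BMP, 12 of 45 lysosome genes had a more positive change in BL6 than in ANS4 and none a more negative one. Of all tested genes, 7.24% and 6.22% differed in these directions. The difference was positive for 38 of the 45 genes, with a median of 0.16 over the lysosome genes and 0.02 over all genes. Under scaling by library size alone it was positive for 31, with medians of 0.07 and -0.07. How many of all tested genes had a positive difference was not counted. The 12 genes were the membrane proteins Npc1, Scarb2, Lamp2 and Cd63, the proteases Ctsc, Ctso, Ctsd and Ctsz, the glycan enzymes Gusb and Ids, the lipid enzyme Galc and the pump subunit Atp6v1a. Within each line fitted alone, 11 genes were higher and 6 lower in BMP/FGF than in BMP for ANS4 (median 0.01), where 17.3% and 18.5% of the genes tested in that line did so (median 0.00019). For BL6 18 were higher and 3 lower (median 0.15), beside 19.5% and 21.0% of the genes tested there (median -0.0027).

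Ctso was at 57.2, 50.7, 42.2 and 43.7 CPM in EGF/FGF, 155, 159.5, 122 and 113 in BMP and 159, 173, 186 and 183 in BMP/FGF. In BMP its ANS4 libraries were above its BL6 libraries, in BMP/FGF below them, and the change from BMP to BMP/FGF was 0.08 ± 0.07 in ANS4 and 0.65 ± 0.07 in BL6 (difference 0.57 ± 0.10, FDR = 0.00128). For Npc1 the change was -0.34 ± 0.06 in ANS4 and 0.07 ± 0.06 in BL6 (difference 0.41 ± 0.08, FDR = 0.00364). Scarb2 likewise had -0.20 ± 0.06 and 0.18 ± 0.06 (difference 0.38 ± 0.08, FDR = 0.00602). In both of these genes the ANS4 libraries were higher than the BL6 libraries in BMP and lower in BMP/FGF. Ctsc rose in both lines, by 0.81 ± 0.11 in ANS4 and 1.38 ± 0.11 in BL6 (difference 0.58 ± 0.15, FDR = 0.0188).

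**Figure D4:**
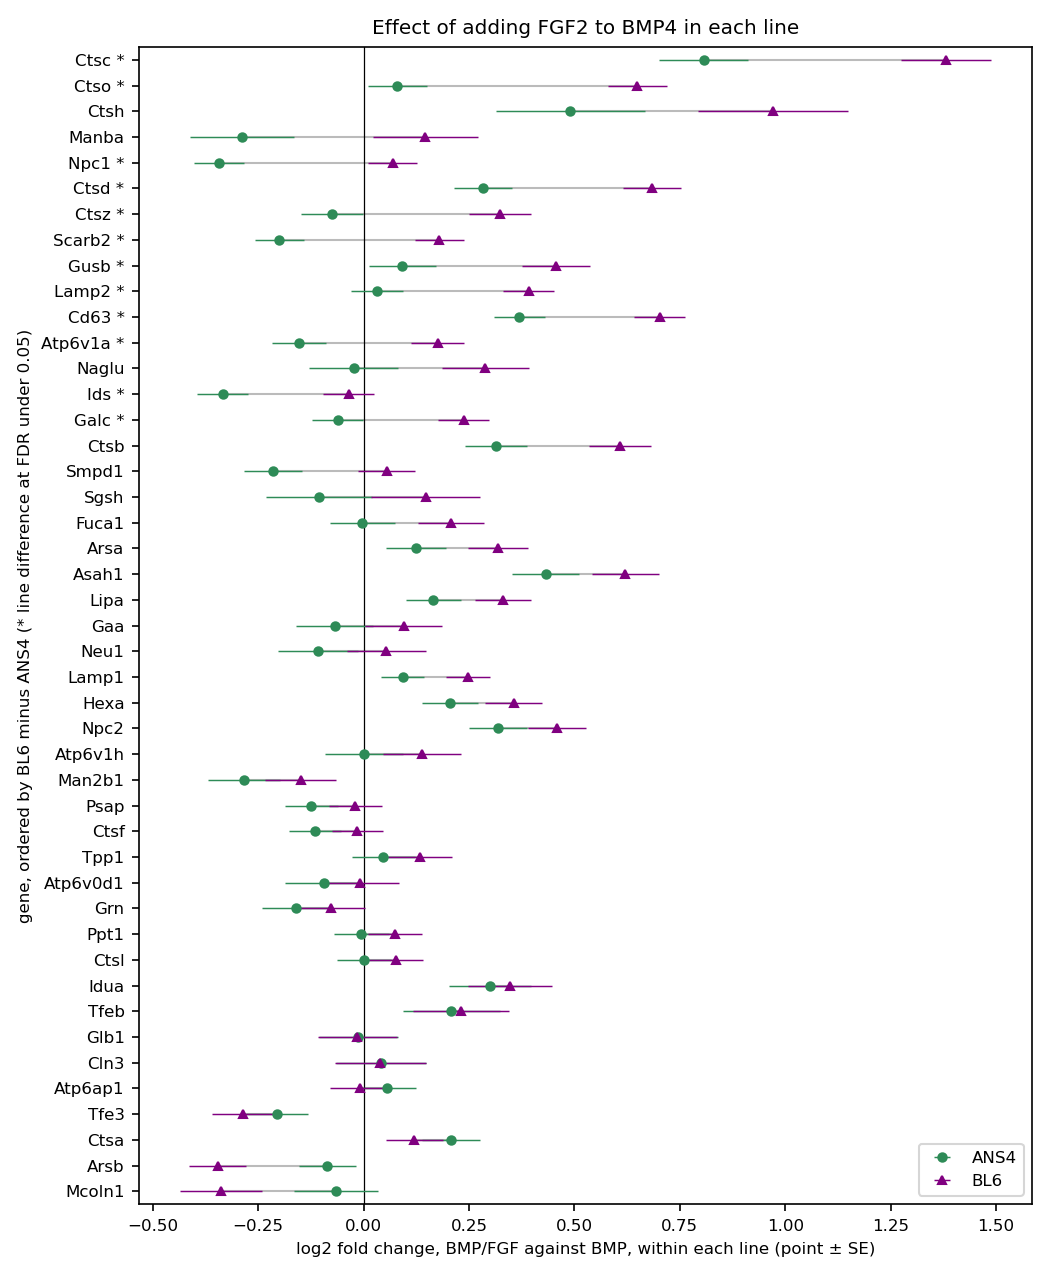
Log2 fold change of BMP/FGF against BMP (horizontal axis, point ± SE) in ANS4 (circles) and BL6 (triangles) for the 45 lysosome genes, ordered by the difference between the lines; an asterisk marks a line difference at FDR under 0.05. The BL6 value lies to the right of the ANS4 value in 38 of 45 genes.

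The number of these line differences depended on single libraries and on scaling. It varied with the library left out, for lysosome genes and over all genes, each time with a lone library in 1 group. It was lowest without a BL6 BMP/FGF library. The median difference over the lysosome genes ranged from 0.14 to 0.22 in these fits, beside 0.16 as reported. Under scaling by library size alone 6 lysosome genes had a more positive and 1 a more negative change in BL6, and the numbers over all tested genes went from 987 and 849 to 536 and 1389. TMM factors were 1.04 for the BL6 BMP libraries and 0.978 for the BL6 BMP/FGF libraries. Cycling markers summed to 477 to 542 CPM in the BL6 BMP libraries and to 368 to 387 in the ANS4 BMP libraries. Astrocyte markers summed to 3476 to 3554 CPM in BL6 BMP and to 4464 to 4476 in ANS4 BMP. Of these, Aqp4, Aldh1l1 and Gja1 were lower in BL6 BMP than in ANS4 BMP, and S100b overlapped. Gfap was higher in BL6 BMP, at 991 and 1102 CPM against 931 and 892 in ANS4 BMP. The part of these features in the line differences was not tested.

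Other genes of the lysosome, a list of 87 further pump subunits, hydrolases, membrane proteins, delivery factors and nutrient sensors, gave 82 genes in the table and 76 tested. In BMP 41 of the 76 rose and 16 fell against EGF/FGF (median log2 fold change 0.20), in BMP/FGF 47 rose and 13 fell (0.29), and 15 were higher and 7 lower in BMP/FGF than in BMP. Over all tested genes the shares were 40.2% and 38.8% in BMP, 40.0% and 38.1% in BMP/FGF, and 19.2% and 21.5% between the quiescent states. The largest rises in BMP were those of Atp6v1g2, a pump subunit found mainly in neural tissue (2.08 ± 0.14, FDR = 1.42e-10), and the mannosidase Man2b2 (1.96 ± 0.08, FDR = 2.7e-13). Arsg, a sulfatase of heparan sulfate breakdown, rose most in BMP/FGF (2.48 ± 0.11, FDR = 5.09e-13), from 4.75, 5.23, 4.96 and 4.36 CPM in EGF/FGF to 27.4, 26.7, 28.0 and 25.1. Igf2r, a receptor that delivers hydrolases to the lysosome by their mannose 6-phosphate tag, fell in BMP/FGF (-1.03 ± 0.08, FDR = 2.32e-09), and so did the carboxypeptidase Scpep1 (-0.93 ± 0.07, FDR = 1.3e-09). Cd68, a membrane glycoprotein abundant in macrophages, and the collagen-degrading protease Ctsk fell most in BMP (-1.84 and -1.81) and rose most from BMP to BMP/FGF (1.08 and 1.75), at levels of at most 4.54 and 1.04 CPM in any library.

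Of the 14 other pump subunits tested, 9 rose and 1 fell in BMP and 9 rose and none fell in BMP/FGF, while between BMP and BMP/FGF 3 were higher and 1 lower in BMP/FGF. Of 22 other hydrolases 12 rose and 6 fell in BMP and 14 rose and 5 fell in BMP/FGF, and of 16 other membrane proteins the numbers were 9 and 3, and 11 and 3. For 9 delivery factors they were 5 and 3 in BMP and 6 and 3 in BMP/FGF. The 15 genes of nutrient sensing at the lysosome had 6 rises and 3 falls in BMP, a share of rises of 40% that is near the 40.2% of all tested genes, and 7 and 2 in BMP/FGF. Among them Flcn and Fnip2, which form a complex that restrains Tfeb and Tfe3, were the genes of the list that fell most from BMP to BMP/FGF (-0.41 ± 0.09, FDR = 0.002 and -0.48 ± 0.08, FDR = 8.26e-05).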

How the data were processed

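RNA was extracted from adult NSC cultures with a kit for total RNA, and low input libraries were sequenced on a BGISEQ-500RS. Per the methods and the submitters' processing notes, the authors used Trim Galore 0.5.0 for trimming and kallisto 0.44.0 for quantification on transcripts of mm10, summed the transcripts of each gene, and deposited estimated counts, already rounded to whole numbers. A table of log2 values, made by the authors with the regularized logarithm of DESeq2 1.27.32, was used only for an alternative. kallisto divides reads among similar transcripts by estimation, which adds uncertainty for genes that share sequence.

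Genes were kept by filterByExpr of edgeR 4.0.16 over the 6 groups of line and state, and scaled by TMM. The model (glmQLFit) took in all 12 libraries, with terms for state and line, or for the 6 groups where lines were compared. glmQLFTest was two-sided, with Benjamini-Hochberg adjustment over all 13641 tested genes in R 4.3.3. Alternatives used other scaling, DESeq2 1.42.0, limma 3.58.1 on the log2 values, no filter, no line term, a replicate block, fewer libraries and each library left out in turn. The fits were tested on simulated data. Gene positions came from GENCODE vM21 and promoter windows from RefSeq.

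The genes and lists were chosen with earlier results of these data known. Values per library are given for the 3 genes with the largest absolute change in BMP in each role group of 7 or more and all genes of smaller groups, the 6 largest called changes from BMP to BMP/FGF, the 3 lowest p-values of each line interaction and the 3 largest line differences. Of the other lysosome genes, the 2 largest rises and 2 largest falls per comparison are named. Glb1, Arsg and genes given by their change alone are named beyond this rule. At these totals 3 counts, the limit that a count of 0 allows, equal 0.154 to 0.166 CPM, and such limits cover counting error only.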

Additional observations from a re-analysis of the deposited data

Results flagged for a closer look

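No library stood far from the other 3 of its state in any of the lysosome genes whose library values are given, by Dixon's test at the 95% level over 81 groups of 4 libraries. The change between states differed between the lines, by the interaction term of edgeR's quasi-likelihood test at FDR under 0.05, in 14 cases, all with the more positive change in BL6.

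From EGF/FGF to BMP, the change in BL6 exceeded that in ANS4 by 0.37 on the log2 scale for the protease Ctsl and by 0.37 for the hexosaminidase chain Hexa. From BMP to BMP/FGF, the difference was largest for the proteases Ctsc (0.58) and Ctso (0.57). It was 0.41 for Npc1, 0.40 for Ctsd, 0.40 for Ctsz, 0.38 for Scarb2, 0.36 for Gusb and 0.36 for Lamp2. For Cd63 it was 0.33, for Atp6v1a 0.33, for Galc 0.30 and for Ids 0.30. Each line had 2 libraries per state, and the number of genes called varied with the libraries used.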

How the results depend on the processing

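In the comparisons of states the counts of higher genes stayed within 1.5 times of those reported under all 22 alternatives run. Over all 45 tested genes and the 3 comparisons of states, 2970 values came from these alternatives: 2036 kept a call, 54 lost one, 782 stayed without one, 36 gained one and 62 changed sign, all 62 of changes that were not called as reported. Of the calls reported, 35 of 40 in BMP, 35 of 36 in BMP/FGF and 10 of 19 between the quiescent states held in all 22, and Lipa in BMP and Lamp2, Lamp1, Man2b1 and Ids between the quiescent states were lost in 6 to 9. Among the genes named by rule in each comparison, 5 values changed sign, all of Atp6v1h, whose change was -0.027 in BMP and -0.013 in BMP/FGF with ANS4 alone, and ranged from -0.037 to 0.065 in BMP with each library left out in turn (as reported 0.014). With BL6 alone the median in BMP/FGF against EGF/FGF was 0.75 in place of 0.60. The line difference for BMP against EGF/FGF (2 genes) gave 4 with library size only, 4 with DESeq2, 0 with only the 8 libraries compared and 0 to 12 with a library left out. That for BMP/FGF against BMP (12 genes) gave 7 with library size only and 3 to 15 with a library left out. Genes lower in BL6 than in ANS4 (0) were 2 with DESeq2 and 0 to 1 with a library left out, and genes lower in BMP/FGF than in BMP (4) were 2 to 5. The cause of these shifts was not tested, and a left-out library leaves a lone sample that is assumed to vary like the others.

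Replicate numbers did not pair the libraries: differences between replicates correlated by -0.0668 to 0.0484 over 6 pairs of states. With a replicate block, 13 genes were higher and 3 lower in BMP/FGF than in BMP, 6 were lower in BMP than in EGF/FGF, and the line differences were 2 and 11. With 2 libraries per line and state, small differences between lines are beyond the precision of these data, and low genes such as Ctsh rest on few counts.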
